A study of Mus musculus with 12 samples.

Results

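Angiotensin and adrenergic signalling genes were followed in the left ventricle of mice under pressure overload and after its relief. The 8 genes were Ace, Agtr1a, Adrb1, Adra1a, Adra1b, Grk2, Grk5 and Gpr22, and a gene was taken up where a probe set was annotated to its symbol alone. A probe set for 5 of the 8 was named in the platform annotation: Ace, Grk5 and Gpr22 had 2 probe sets each, and Agtr1a and Adra1b had 1 each. Adrb1, Adra1a and Grk2, the last also sought under its older symbol Adrbk1, had no probe set named there and were not analysed here. Each gene was read from the probe set with the highest mean over the 12 arrays, and 10435 genes were tested in all. None of the 5 fell below a log2 signal of 4, the floor used for dim probe sets, on any array.

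All 12 mice were male C57BL/6 animals first operated at 7 weeks of age, and none carried an engineered allele according to the labels. AB mice had lived for 4 weeks with a banded aorta, and sAB mice had the sham of that operation. DB3 mice were banded for 4 weeks, then debanded and killed 3 days later, and sDB3 mice were shams taken on the same schedule. Each group had 3 mice, each with its own label and array, and whether RNA of several animals was pooled is not stated. The values were GCRMA log2 signals, so a difference of 1 is a factor of 2 on the linear scale. Levels of different genes cannot be ranked from them, since each probe set has its own response.

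Angiotensin-converting enzyme, encoded by Ace, cuts angiotensin I to angiotensin II and degrades bradykinin, and in the heart it sits mostly on endothelium. Agtr1a encodes the main type 1 angiotensin II receptor of mice, and Adra1b encodes the alpha-1B adrenergic receptor. Both couple to Gq proteins and act on growth and contraction of heart muscle. G protein-coupled receptor kinases such as Grk5 phosphorylate activated receptors so that arrestins can uncouple them, and Gpr22 is an orphan receptor known from brain and heart.

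Over the 5 genes the arrays showed 3 patterns. Ace and Grk5 were higher in AB than in sAB hearts, Gpr22 was lower, and Agtr1a and Adra1b did not pass the test. After 3 days of debanding, Grk5 alone among them passed against the matching sham. By an F test over the 4 groups, 3 of the 5 passed at a limma adjusted p below 0.05, the threshold used throughout: Ace (adjusted p = 0.000524), Grk5 (adjusted p = 0.00173) and Gpr22 (adjusted p = 0.0052). The same test called 37.2% of all genes tested. Agtr1a (adjusted p = 0.114) and Adra1b (adjusted p = 0.127) were not called.

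The sequence just before the transcription start is shown for these 3 genes, as the stretch of DNA closest to where their transcripts begin. Each is the 250 bases before a RefSeq start in GRCm38.p6, 5′ to 3′ on the gene's own strand. Capitals mark matches, on either strand, to TATAAA (the TATA box), CCAAT (the CCAAT box), GGGCGG (the GC box) or CANNTG (the E-box). Ace has 2 annotated starts, of which the second lies inside the gene.
Gpr22, chr12:31713884-31714133, minus strand: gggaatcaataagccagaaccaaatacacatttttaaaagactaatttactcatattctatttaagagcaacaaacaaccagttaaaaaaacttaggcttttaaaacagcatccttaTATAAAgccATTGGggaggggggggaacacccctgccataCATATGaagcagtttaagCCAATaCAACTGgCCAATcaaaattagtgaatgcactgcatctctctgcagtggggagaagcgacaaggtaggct
Ace, first start, chr11:105967698-105967947, plus strand: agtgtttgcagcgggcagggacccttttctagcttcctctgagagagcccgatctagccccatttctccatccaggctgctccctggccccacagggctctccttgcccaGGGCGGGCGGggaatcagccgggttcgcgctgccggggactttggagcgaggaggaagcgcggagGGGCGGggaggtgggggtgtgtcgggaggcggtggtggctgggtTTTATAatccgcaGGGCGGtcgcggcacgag
Ace, second start, chr11:105974939-105975188, plus strand: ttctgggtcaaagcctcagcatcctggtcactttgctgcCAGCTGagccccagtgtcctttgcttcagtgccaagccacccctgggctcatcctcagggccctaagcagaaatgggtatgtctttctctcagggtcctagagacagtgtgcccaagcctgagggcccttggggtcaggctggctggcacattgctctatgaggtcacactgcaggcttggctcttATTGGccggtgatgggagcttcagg
Grk5, chr19:60889499-60889748, plus strand: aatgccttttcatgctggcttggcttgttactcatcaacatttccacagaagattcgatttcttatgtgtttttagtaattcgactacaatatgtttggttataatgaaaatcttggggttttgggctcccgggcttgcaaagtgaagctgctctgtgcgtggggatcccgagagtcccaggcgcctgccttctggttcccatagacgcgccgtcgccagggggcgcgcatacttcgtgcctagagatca

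The 4 windows had little in common. The Gpr22 window had 39.6% GC, 1 TATAAA match at 133 to 128 bases before the start, 3 CCAAT matches and 2 CANNTG matches. The first Ace window had 67.2% GC and 4 GGGCGG matches, of which 2 overlap, and a TATAAA match on the opposite strand at 31 to 26 bases before the start. The second Ace window had 58% GC, with 1 CCAAT and 1 CANNTG match, and the Grk5 window had 49.6% GC and no match to any of these motifs. Across 32851 windows of the same length the median GC was 52.4%, and TATAAA was found in 12.4%, CCAAT in 33.8%, GGGCGG in 32.7% and CANNTG in 66.2%. TGACG, the half-site of the cAMP response element, and the CArG box were also searched and had no match in the 4 windows. They were found in 17.8% and 1.47% of all windows. These matches are letters in a window and carry no measurement of binding.

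The labelled tissue was matched by its markers. All 8 cardiomyocyte markers were tested, and Myh6, the alpha myosin heavy chain, averaged a log2 signal of 16.5 over the 12 arrays. Genes of atrial muscle were also present, although the atria were cut away per the labels: the summed linear signal of 4 atrial markers (Sln, Myl7, Myl4 and Nr2f2) was 1704 to 8665 in AB, against 466 to 1548 in sAB hearts, and 206 to 14444 in DB3, against 2592 to 15970 in sDB3 hearts. The sums were lower in sAB than in every AB and sDB3 heart and varied widely among the DB3 hearts. Probe sets for BioC, a bacterial control transcript that the array maker's protocol adds before hybridisation, averaged 7.99 ± 0.22 on AB, 7.93 ± 0.07 on DB3 and 7.93 ± 0.22 on sDB3 arrays. They averaged 10.02 ± 0.17 on the sAB arrays (log2, SD, n = 3 each). The sAB arrays therefore stood apart in a control that does not come from the heart, and for every comparison with sAB a difference in hybridisation or handling cannot be told apart from the operation. AB is for that reason also set against sDB3 hearts, a sham group whose BioC level lay with the other arrays, though those mice were 3 days further on and had a second operation. The Actb signal at the 3′ end exceeded that at the 5′ end by 1.02 to 1.13 in AB, 1.2 to 1.26 in sAB, 1.11 to 1.32 in DB3 and 1.2 to 1.25 in sDB3 hearts on the log2 scale. The AB arrays thus lay at the low end of this 3′ excess, where a larger excess goes with less intact RNA or shorter labelled copies. The part of this measure in the results was not tested. The median log2 difference over all genes was 0.01 for AB against sAB, 0.11 for AB against sDB3 and 0.09 for DB3 against sDB3.

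**Figure D1:**
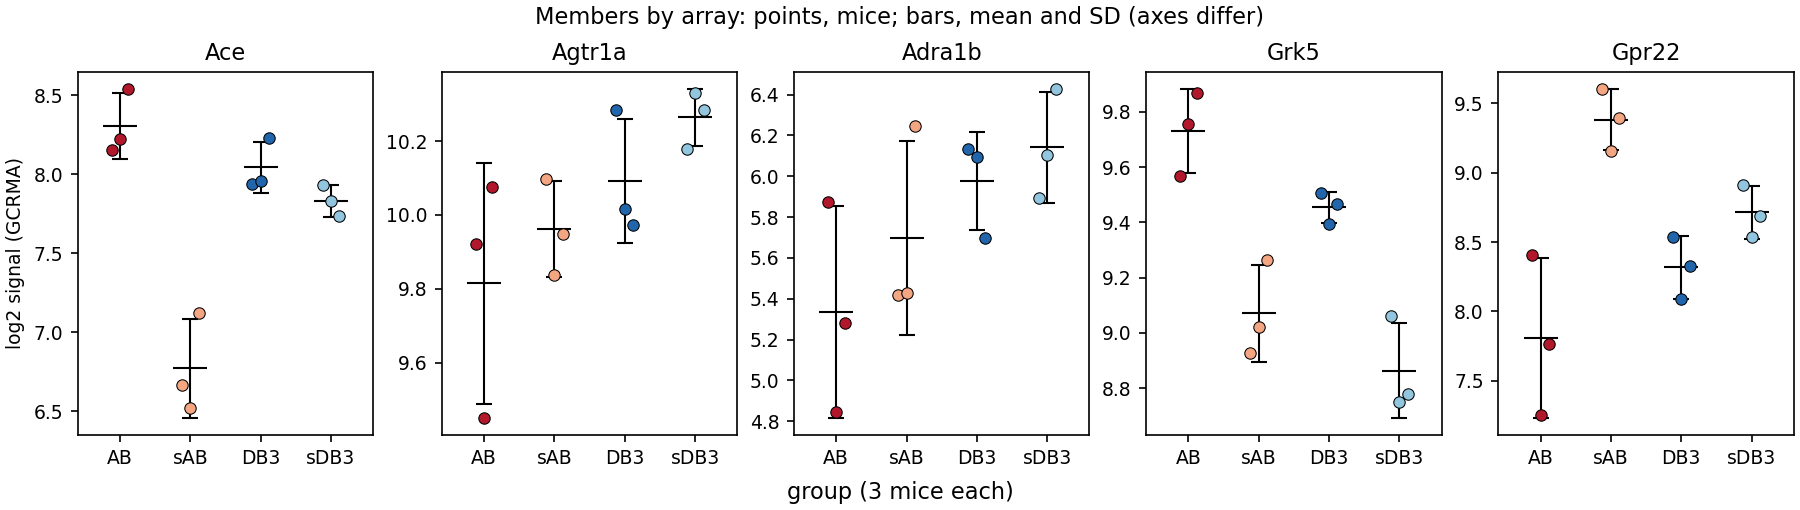
GCRMA log2 signal (y axis) of Ace, Agtr1a, Adra1b, Grk5 and Gpr22 by group (x axis), with 1 point per mouse and bars for the mean and SD of 3 mice. Ace is lowest in the 3 sAB hearts, Gpr22 is highest there, and Grk5 is higher in AB and DB3 than in both sham groups.

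Ace was higher in every AB heart than in any sAB heart. Its signal was 8.15, 8.22 and 8.54 in AB hearts, against 6.67, 6.52 and 7.12 in sAB hearts. The groups did not overlap, as in 42.1% of all genes tested, and the difference was 1.53 ± 0.16 (SE), or 2.89-fold, with a limma adjusted p of 0.000191. Of the 5 genes, 3 were called in this comparison, 2 higher and 1 lower, where 19.7% of all genes tested were called, 12% higher and 7.69% lower. Against sDB3 hearts, at 7.93, 7.83 and 7.73, the same AB hearts were higher by 0.47 ± 0.16, which did not pass (adjusted p = 0.0531), although these groups did not overlap either, as in 43.0% of all genes. This difference passed under 4 other settings that kept every AB and sDB3 array: a filter at 6 (adjusted p = 0.0447), the mean of both probe sets (0.66, adjusted p = 0.0058), only the groups compared (adjusted p = 0.0422) and a trended robust prior (adjusted p = 0.0398). It also passed without sAB replicate 2 or 3. It did not pass without a dim filter (adjusted p = 0.127), after quantile normalisation, after median centring or without moderation. Over the alternatives that left out no single array, the difference fell as low as 0.34 and the adjusted p rose as high as 0.139.

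In DB3 hearts Ace read 7.94, 7.96 and 8.23, against the 7.93, 7.83 and 7.73 of sDB3 hearts. The lowest DB3 heart lay just above the highest sDB3 heart, so that the groups did not overlap, as in 28.1% of all genes, and the difference of 0.21 ± 0.16 did not pass (adjusted p = 0.426). The order of the means was AB at 8.31 ± 0.21, DB3 at 8.04 ± 0.16, sDB3 at 7.83 ± 0.10 and sAB at 6.77 ± 0.31 (SD, n = 3 each). In that order the only neighbours that differed by the test were the shams: sDB3 exceeded sAB by 1.06 ± 0.16, or 2.09-fold (adjusted p = 0.00284). The effect of DB3 against sDB3 was smaller than that of AB against sAB by 1.32 ± 0.22 on the log2 scale (adjusted p = 0.0124). It was the only 1 of the 5 genes called for a difference between the effects, where 6.04% of all genes were called.

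The other Ace probe set, 1427034_at, did not rank the shams in this way. It read 7.51, 7.83 and 7.70 in AB hearts, against 6.60, 6.64 and 6.89 in sAB hearts, and the difference of 0.97 passed (adjusted p = 0.000837). In DB3 hearts it read 7.10, 7.25 and 7.35, against 6.69, 7.09 and 6.70 in sDB3 hearts, without overlap, but the difference of 0.41 did not pass (adjusted p = 0.0852). Both sham groups overlapped, with a difference of 0.11 for sDB3 against sAB (adjusted p = 0.572). With this probe set AB exceeded sDB3 by 0.86 (adjusted p = 0.0022), and the difference between the effects, -0.56, did not pass (adjusted p = 0.101). The higher Ace signal in AB than in sAB hearts was thus seen with both probe sets, and the gap between the shams with only 1 of them.

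Endothelial genes were summed beside Ace because that is where the enzyme is known to lie. All 10 of the endothelial markers were tested, and their summed linear signal was 8002 to 8538 in AB hearts, against 7222 to 7339 in sAB hearts. It was 6384 to 7222 in DB3 hearts, against 6049 to 6937 in sDB3 hearts. The AB hearts had the highest sums. Of the 10 markers, 2 were called higher in AB than in sAB (Tie1 and Robo4, named after their values were seen), where 12% of all genes were. In AB against sDB3, 7 of the 10 were called higher, where 1809 of 10435 genes were. That all-gene count was 809 after median centring, and the marker counts were not tested under other scalings. The 8 fibroblast markers summed to 23783 to 34787 in AB hearts, against 17084 to 26428 in sAB hearts, and to 19546 to 26723 in DB3 hearts, against 17687 to 18731 in sDB3 hearts. Of these 8, 3 were called higher in AB than in sAB (Pdgfra, Col1a1 and Postn) and 1, Postn, in AB than in sDB3, beside the same shares of all genes. The atrial sums given above were lower in sAB than in every AB and sDB3 heart. So was Ace with probe set 1451911_a_at, but not with 1427034_at. The lowest atrial sum in DB3 hearts, 206, lay below that of every sAB heart. Ace was higher in every DB3 heart than in every sAB heart with both probe sets. The part of endothelial, fibroblast or atrial content in the Ace differences was not tested. In a whole ventricle, more or fewer cells of a type and more or less RNA per cell cannot be told apart.

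**Figure D2:**
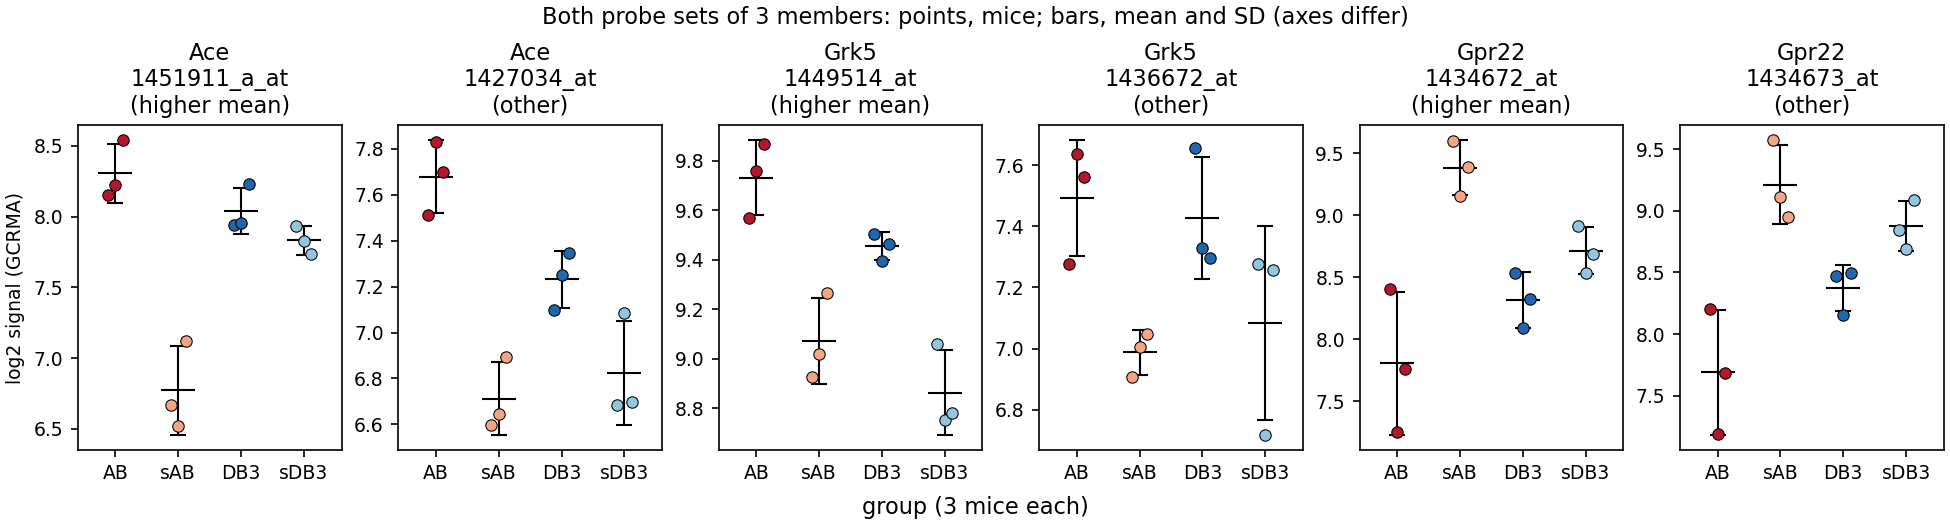
GCRMA log2 signal (y axis) of both probe sets of Ace, Grk5 and Gpr22 by group (x axis), with 1 point per mouse and bars for the mean and SD of 3 mice. The sDB3 hearts lie far above the sAB hearts with Ace probe set 1451911_a_at and beside them with 1427034_at, while both Gpr22 probe sets are lowest in AB hearts.

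Among the 3 receptor genes, Gpr22 had the largest difference for AB against sAB and for AB against sDB3. Its signal was 8.41, 7.25 and 7.76 in AB hearts, against 9.60, 9.16 and 9.39 in sAB hearts. The highest AB heart lay below the lowest sAB heart, and the difference of -1.58 ± 0.25, or 2.98-fold lower, passed (adjusted p = 0.00193). It was the 14th most negative difference among the 10435 genes of this comparison. Against sDB3 hearts, at 8.92, 8.54 and 8.69, AB hearts were lower by 0.91 (-0.91 ± 0.25, 1.88-fold lower, adjusted p = 0.026), again without overlap.

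The call against sDB3 was less firm than the call against sAB. Without AB replicate 2 the adjusted p was 0.0809, and it was also above 0.05 without AB replicate 3, sDB3 replicate 1 or sDB3 replicate 3. The AB hearts were themselves spread out, with an SD of 0.58. The second Gpr22 probe set, 1434673_at, gave -1.52 against sAB (adjusted p = 0.00194) and -1.18 against sDB3 (adjusted p = 0.00748).

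In DB3 hearts Gpr22 read 8.54, 8.09 and 8.33, above 2 of the 3 AB hearts. It stood 0.51 ± 0.25 above AB (adjusted p = 0.235) and 0.40 below sDB3 (-0.40 ± 0.25, adjusted p = 0.339), and neither difference passed. From low to high the means were AB at 7.81 ± 0.58, DB3 at 8.32 ± 0.22, sDB3 at 8.71 ± 0.19 and sAB at 9.38 ± 0.22 (SD, n = 3 each), and no 2 neighbours in that order differed by the test. Without AB replicate 1, the AB heart with the highest Gpr22, DB3 exceeded AB by 0.81 and passed (adjusted p = 0.035). Without it the effect of DB3 against sDB3 also exceeded that of AB against sAB by 1.48 (adjusted p = 0.0192), where all 12 arrays gave 1.18 ± 0.35 (adjusted p = 0.0726). Dropping that heart thus turned both calls.

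Gpr22 lies within the span of Cog5, a Golgi trafficking gene, in the RefSeq annotation, so Cog5 was read as well. It differed by -0.15 ± 0.10 for AB against sAB (adjusted p = 0.308) and by 0.09 ± 0.10 for AB against sDB3 (adjusted p = 0.571), and was called in neither. The summed signal of the 8 cardiomyocyte markers was 359565 to 379511 in AB hearts, against 388885 to 394573 in sAB and 396737 to 405342 in sDB3 hearts. In DB3 hearts the summed signal was 371400 to 380198. These sums were lower in every AB and every DB3 heart than in every sham heart. Of the 8 markers, 0 were called for AB against sAB, where 19.7% of all genes were. Against sDB3, 2 were lower and 0 higher, where 489 of 10435 genes were lower. The part of these sums in the Gpr22 difference was not tested.

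Agtr1a did not differ by the test in any comparison. It read 9.92, 9.45 and 10.08 in AB hearts, against 10.10, 9.84 and 9.95 in sAB hearts, with overlapping groups and a difference of -0.15 (95% confidence interval -0.47 to 0.18, adjusted p = 0.53). In DB3 hearts it read 10.28, 10.02 and 9.97, against 10.18, 10.33 and 10.29 in sDB3 hearts, a difference of -0.17 (95% confidence interval -0.50 to 0.16, adjusted p = 0.496). The sDB3 hearts lay above all 3 AB hearts, but the difference of -0.45 ± 0.15 for AB against sDB3 did not pass (adjusted p = 0.0527). A p above the threshold does not show that the groups were alike, and the interval for AB against sAB still holds a difference as large as that against sDB3.

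Adra1b did not pass in any comparison either. It read 5.88, 4.84 and 5.28 in AB hearts, against 5.42, 5.43 and 6.25 in sAB hearts, a difference of -0.36 with a 95% confidence interval of -0.99 to 0.26 (adjusted p = 0.4). In DB3 hearts it read 6.13, 6.09 and 5.70, against 5.89, 6.11 and 6.43 in sDB3 hearts, a difference of -0.17 with an interval of -0.79 to 0.46 (adjusted p = 0.746). Both pairs of groups overlapped. Against sDB3 the AB hearts differed by -0.81 ± 0.28 (adjusted p = 0.065).

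Both receptor genes had their means in the same order. Agtr1a averaged 9.82 ± 0.33 in AB, 9.96 ± 0.13 in sAB, 10.09 ± 0.17 in DB3 and 10.26 ± 0.08 in sDB3 hearts (SD, n = 3 each), and Adra1b averaged 5.33 ± 0.52, 5.70 ± 0.48, 5.97 ± 0.24 and 6.14 ± 0.27 in those groups. No neighbours in this order differed by the test for either gene. Over the 12 arrays the pair had a Pearson correlation of 0.71, given as a description, since the arrays share groups and processing. Lower Agtr1a and Adra1b in AB than in sDB3 hearts passed when arrays were quantile normalised or centred on their medians. Over the 8 alternatives that left out no single array, 4 passed for Agtr1a, with adjusted p from 0.0203 to 0.124. For Adra1b 2 of the 8 passed, with adjusted p from 0.0365 to 0.162.

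Grk5, the receptor kinase, was higher in the banded hearts against both shams. It read 9.57, 9.76 and 9.87 in AB hearts, against 8.93, 9.02 and 9.27 in sAB hearts. The groups did not overlap and the difference was 0.66 ± 0.11, or 1.58-fold (adjusted p = 0.00323). Against sDB3 hearts, at 9.06, 8.75 and 8.78, AB hearts were higher by 0.87 ± 0.11, or 1.83-fold (adjusted p = 0.00108). Grk5 and Gpr22 were the 2 genes of the 5 called between AB and sDB3, where 22% of all genes were called.

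Grk5 was also the only 1 of the 5 called between DB3 and sDB3, where 6.36% of all genes were called. DB3 hearts read 9.50, 9.39 and 9.46 and every sDB3 heart was lower, for a difference of 0.59 ± 0.11, or 1.51-fold (adjusted p = 0.0246). The call did not survive several changes: the adjusted p was 0.0644 without DB3 replicate 1, 0.0526 without DB3 replicate 3, 0.0652 without sDB3 replicate 2 and 0.0924 with only these 2 groups in the fit. The mean of both probe sets gave 0.47 (adjusted p = 0.0534). The second probe set alone, 1436672_at, gave 0.34 for DB3 against sDB3 (adjusted p = 0.2) and 0.41 for AB against sDB3 (adjusted p = 0.0877), and it passed for AB against sAB at 0.50 (adjusted p = 0.0467).

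The Grk5 means ran from AB at 9.73 ± 0.15 through DB3 at 9.45 ± 0.06 and sAB at 9.07 ± 0.18 to sDB3 at 8.86 ± 0.17 (SD, n = 3 each). DB3 was below AB by 0.28 (-0.28 ± 0.11, adjusted p = 0.164), a difference that did not pass, and the effects of banding and of debanding against their shams differed by -0.07 ± 0.16 (adjusted p = 0.833). DB3 exceeded sAB by 0.38 ± 0.11 (adjusted p = 0.0371), a call lost in 6 of the 12 fits that leave out 1 array. The shams differed by -0.21 ± 0.11 for sDB3 against sAB (adjusted p = 0.222), and the second probe set put sDB3 higher.

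**Figure D3:**
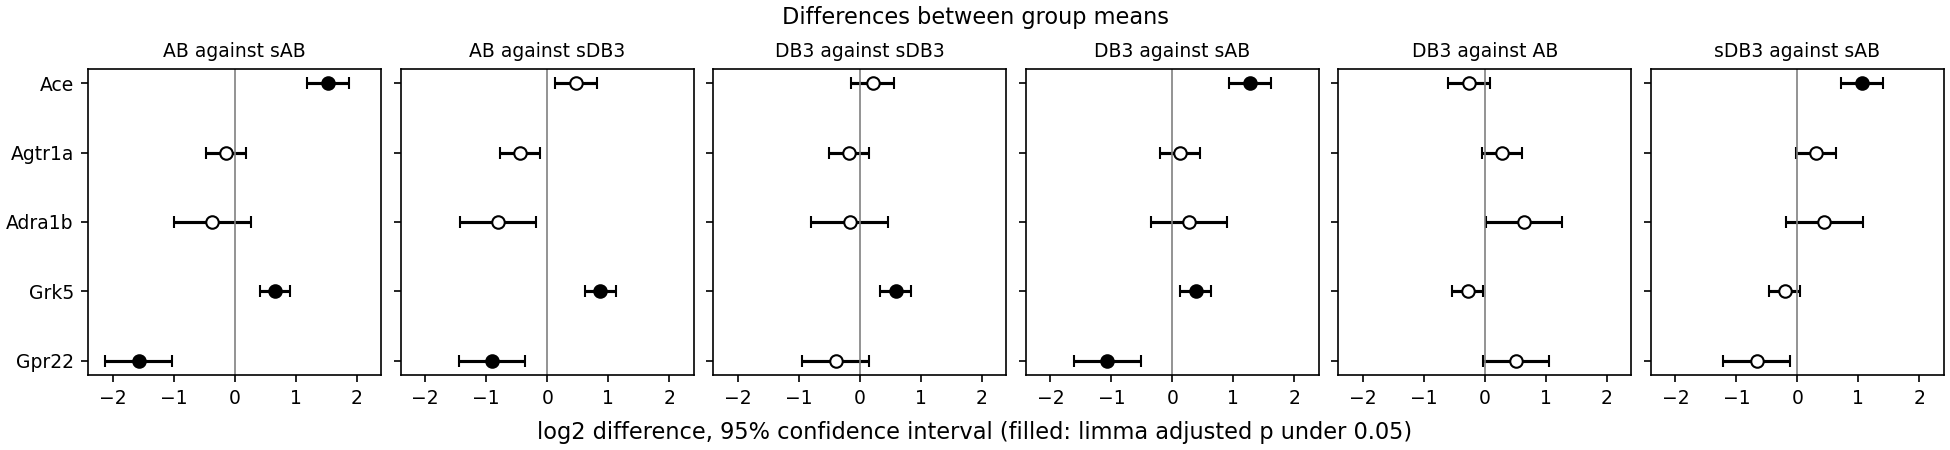
Log2 difference between group means (x axis, with its 95% confidence interval) for the 5 genes (rows) in the 6 pairwise comparisons, filled where the limma adjusted p was under 0.05. Filled points for Ace and Grk5 lie right of 0 and for Gpr22 left of 0, and no gene is filled for DB3 against AB.

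Set directly against banded hearts, none of the 5 genes was called 3 days after debanding, where 9.16% of all genes were called. At an unadjusted p under 0.05, 2 of the 5 were counted, Adra1b and Grk5, where 24.7% of all genes were. DB3 differed from AB by -0.26 for Ace (adjusted p = 0.335), 0.28 for Agtr1a (adjusted p = 0.283), 0.64 for Adra1b (adjusted p = 0.194), 0.51 for Gpr22 and -0.28 for Grk5. For each of the 5 genes AB had the highest or the lowest mean of the 4 groups. DB3 could therefore differ from AB only toward the shams, and the shared direction is no result of its own. Between the shams, 1 of the 5 genes, Ace, was called for sDB3 against sAB, where 17.8% of all genes were called, and Gpr22 differed by -0.67 ± 0.25 (adjusted p = 0.0828). That Gpr22 difference passed without AB replicate 1 (adjusted p = 0.034) or AB replicate 2 (adjusted p = 0.0432), arrays that enter only through the shared estimate of spread.

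DB3 against sAB, the comparison that joins debanding with the array difference in BioC, called 3 of the 5 genes, where 21.9% of all genes were called. Ace differed by 1.27 ± 0.16 (adjusted p = 0.000622), Gpr22 by -1.07 ± 0.25 (adjusted p = 0.0133) and Grk5 by the 0.38 given above. These comparisons share groups, so their calls are not independent of each other.

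The wider pathway was read from 144 other genes in 10 lists of angiotensin, adrenergic and G protein signalling, of which 97 were tested, 28 were below the filter and 19 had no probe set named here. In AB against sAB, 23 of the 97 were called (23.7%), 11 higher and 12 lower, with a median difference of 0.07 beside 0.01 over all genes. In AB against sDB3, 34 were called (35.1%), 28 higher and 6 lower, with a median of 0.16 beside 0.11. The 6 lower include Rgs14 (-0.42 ± 0.10, adjusted p = 0.013), which read 3.69 to 3.77 in AB hearts, below the floor of 4. Rgs14 passed the filter through the sDB3 hearts, where it was high. Its call in this comparison and in DB3 against sDB3 is therefore a description only. In DB3 against sDB3, 4 were called (4.12%), 3 higher and 1 lower, with a median of 0.11 beside 0.09. In DB3 against AB, 16 were called (16.5%), 6 higher and 10 lower, with a median of -0.07 beside -0.02. Of the genes named below, Gnao1, Gng12, Adcy7 and Pde8a were among those lower, and Gna12, Pde4d and Maob among those higher. The count for DB3 against AB was not read under other settings. These shares stood beside 19.7%, 22%, 6.36% and 9.16% of all genes. The directions depend on scaling: of all genes called for AB against sDB3, 78.7% were higher as deposited, 55.8% after quantile normalisation and 39.9% after median centring. For AB against sAB the share was 61%, 51.1% and 47%, and for DB3 against sDB3 it was 84.3%, 53.8% and 29.4%. Of 18 other cardiac G protein-coupled receptors listed, 8 were tested. For AB against sAB none was called as deposited or after quantile normalisation, and 1 was higher after median centring. In AB against sDB3, 5 of the 8 were higher and none lower (62.5%, beside 22% of all genes called). These counts were 5 and 0 after quantile normalisation and 4 and 0 after median centring. None was called for DB3 against sDB3.

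Of the renin-angiotensin list, 8 of 18 genes were tested. For AB against sAB 2 were higher, Ace and Ctsd, and none was lower, where 12% of all genes were higher and 7.69% lower. After quantile normalisation or median centring 2 were higher and 1 was lower. Ctsd, the lysosomal protease cathepsin D, differed by 0.38 ± 0.09 (adjusted p = 0.0121), and by 0.08 ± 0.09 against sDB3 (adjusted p = 0.517). Against sDB3, 2 of the 8 were higher and none lower (25%, beside 22% of all genes called). These counts were 2 and 2 after quantile normalisation and 1 and 3 after median centring. As deposited the 2 were Enpep, an aminopeptidase that trims angiotensin II, at 0.51 ± 0.11 (adjusted p = 0.00847), and Atp6ap2, the prorenin receptor, at 0.45 ± 0.12 (adjusted p = 0.0259). Against sAB these 2 differed by -0.01 and 0.04 and were not called. Agt, the angiotensinogen gene, Agtr1b, Agtr2 and Mas1 had no array above a log2 signal of 4.

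Among the 5 tested receptor kinases and arrestins, Grk6, a kinase related to Grk5, was lower in AB than in sAB (-0.28 ± 0.07, adjusted p = 0.0241) and higher in AB than in sDB3 (0.27 ± 0.07, adjusted p = 0.0264). The beta-arrestin genes Arrb1 and Arrb2 differed by 0.32 ± 0.20 (adjusted p = 0.294) and 0.56 ± 0.21 (adjusted p = 0.0813) for AB against sAB. Grk6 also changed sign against sAB when its probe sets were averaged, to 0.02.

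Of 17 tested G protein subunits, 4 were called higher in AB than in sAB (23.5%, beside 19.7% of all genes) and 7 higher in AB than in sDB3 (41.2%, beside 22% of all genes), and none was lower. After quantile normalisation or median centring these counts were 4 and 6 higher, again with none lower. The fourth against sAB, beside the 3 below, was the gamma subunit gene Gng12, at 0.30 ± 0.08 (adjusted p = 0.0219), which came to 0.13 with the mean of its probe sets (adjusted p = 0.196). Gnao1, which encodes the inhibitory subunit alpha-o, read 8.30 to 8.41 in AB hearts, against 6.73 to 7.00 in sAB and 6.99 to 7.25 in sDB3 hearts. It was higher by 1.45 ± 0.16 (adjusted p = 0.000289) and 1.22 ± 0.16 (adjusted p = 0.00097) against these shams. In DB3 hearts Gnao1 read 7.35 to 8.04, 0.48 ± 0.16 above sDB3, which did not pass (adjusted p = 0.0927). Against AB hearts the DB3 hearts were lower in Gnao1 by 0.74 (-0.74 ± 0.16, adjusted p = 0.0175). Gnai2, for the inhibitory subunit alpha-i2, was 0.72 ± 0.06 higher in AB than in sAB (adjusted p = 7.93e-05), but 0.17 ± 0.06 higher than in sDB3, which did not pass (adjusted p = 0.0795). Gnb2, a beta subunit, showed the same contrast, at 0.48 ± 0.08 (adjusted p = 0.00217) against sAB and 0.16 ± 0.08 (adjusted p = 0.169) against sDB3.

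In the cyclic AMP branch, 18 adenylyl cyclases and phosphodiesterases were tested. In AB against sAB 2 were higher and 1 lower (16.7%, beside 19.7% of all genes). Against sDB3 these counts were 4 and 1 (27.8%, beside 22%), and 3 and 5 after median centring. Of 15 tested genes of protein kinase A and its anchoring, 2 were higher and 4 lower against sAB (40%). Against sDB3 4 were higher and 2 lower (40%), but 0 and 1 after quantile normalisation and 0 and 3 after median centring. Pde8a and Pde4d moved in opposite directions. Pde8a was higher in AB by 0.82 ± 0.10 against sAB (adjusted p = 0.000403) and 0.87 ± 0.10 against sDB3 (adjusted p = 0.000509). Pde4d was lower by 0.43 against sAB (-0.43 ± 0.09, adjusted p = 0.00926) and 0.68 against sDB3 (-0.68 ± 0.09, adjusted p = 0.00121). Adcy7, an adenylyl cyclase, was higher by 0.59 ± 0.18 (adjusted p = 0.0381) and 1.20 ± 0.18 (adjusted p = 0.00179). Pkig, an inhibitor of protein kinase A, was lower in AB than in sAB by 0.50 (-0.50 ± 0.08, adjusted p = 0.0025), as was its relative Pkia (-0.41 ± 0.12, adjusted p = 0.0313). Against sDB3 the differences were -0.26 for Pkig (adjusted p = 0.0498) and -0.28 for Pkia, which did not pass (adjusted p = 0.111). Rapgef3, a cyclic AMP sensor also called Epac, was higher by 0.38 ± 0.11 against sAB (adjusted p = 0.028) and by 0.42 ± 0.11 against sDB3 (adjusted p = 0.0182). With the mean of its probe sets the difference from sAB was 0.12 (adjusted p = 0.37), and that call was also lost after quantile normalisation, after median centring, without a dim filter and with only the groups compared. The anchoring protein gene Akap13 was higher by 0.32 ± 0.08 against sAB (adjusted p = 0.0239), and its difference of 0.25 ± 0.08 against sDB3 did not pass (adjusted p = 0.057). Rgs12, which speeds the shut-off of G proteins, was higher by 0.49 ± 0.12 against sAB (adjusted p = 0.0165) and 0.47 ± 0.12 against sDB3 (adjusted p = 0.0202).

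Of 15 tested effectors of Gq, the protein to which the type 1 angiotensin and alpha-1 adrenergic receptors couple, 1 was higher in AB than in sAB and 3 were lower (26.7% called, beside 19.7% of all genes). Prkca, the conventional protein kinase C alpha, differed by 0.37 ± 0.10 (adjusted p = 0.0227). Plcb3, a phospholipase C beta, Prkce, protein kinase C epsilon, and Prkd1, protein kinase D1, differed by -0.62 ± 0.18 (adjusted p = 0.0334), -0.31 ± 0.09 (adjusted p = 0.0328) and -0.46 ± 0.09 (adjusted p = 0.00585). Prkce turned to 0.34 and passed in that direction (adjusted p = 0.0143) when its probe sets were averaged. Against sDB3 none of these 4 passed, and 3 others were called higher and none lower (20% called, beside 22% of all genes). They were Plcb4, a phospholipase C beta, at 0.31 ± 0.09 (adjusted p = 0.032), Prkcd, protein kinase C delta, at 0.51 ± 0.13 (adjusted p = 0.018), and Dgkz, a diacylglycerol kinase, at 0.23 ± 0.07 (adjusted p = 0.0448). After quantile normalisation or median centring, none of the 15 was higher and 1 was lower against sDB3.

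Genes of catecholamine synthesis and breakdown were lower in AB than in sAB in 3 of the 4 tested of 10 listed, where 7.69% of all genes were called lower. Ddc, the aromatic amino acid decarboxylase, differed by -1.09 ± 0.29 (adjusted p = 0.0236), Dbh, dopamine beta-hydroxylase, by -1.02 ± 0.29 (adjusted p = 0.0318), and Maob, a monoamine oxidase, by -0.69 ± 0.17 (adjusted p = 0.0198). Against sDB3 only Maob passed, at -0.64 ± 0.17 (adjusted p = 0.026). Dbh was dim, at 3.98 to 4.97 in AB, against 5.01 to 6.00 in sAB and 5.04 to 5.29 in sDB3 hearts. Th, the first enzyme of the pathway and the marker of sympathetic fibres, stayed at the lowest value of the table, 2.23, on every array.

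Of the list genes named for AB against sAB, Gnao1, Gnai2, Gnb2, Pde8a, Pde4d, Pkig and Prkd1 stayed below an adjusted p of 0.05 in each of the 12 fits that left out 1 array. Ctsd lost its call only without AB replicate 3 (adjusted p = 0.0507). Grk6, Gng12, Rgs12, Adcy7, Pkia, Rapgef3, Akap13, Plcb3, Prkca, Prkce, Ddc, Dbh and Maob each lost theirs in 2 or more of these fits, each with an AB array among those left out. Their highest adjusted p lay between 0.0693 for Rgs12 and 0.141 for Adcy7.

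After debanding, the 4 calls against sDB3 were Gna12 at 0.42 ± 0.09 (adjusted p = 0.0329), Akap13 at 0.43 ± 0.08 (adjusted p = 0.0246), Maoa at 0.44 ± 0.11 (adjusted p = 0.0445) and Rgs14 at -0.37 ± 0.10 (adjusted p = 0.0493). Rgs14 read 3.71 to 3.83 in DB3 hearts, against 4.10 to 4.17 in sDB3 hearts, so that it was below the floor of 4 in every DB3 heart and passed the filter through the group where it was high. Its difference is therefore a description only. They encode a G protein alpha subunit, an anchoring protein, a monoamine oxidase and a regulator of G protein signalling. The adjusted p rose to as much as 0.0847, 0.0599, 0.124 and 0.129 with 1 array left out, in the order Gna12, Akap13, Maoa and Rgs14. The count ran from 0 to 4 when 1 array was left out, and it was 0 with only these 2 groups in the fit, where 20 were at an unadjusted p under 0.05.

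**Figure D4:**
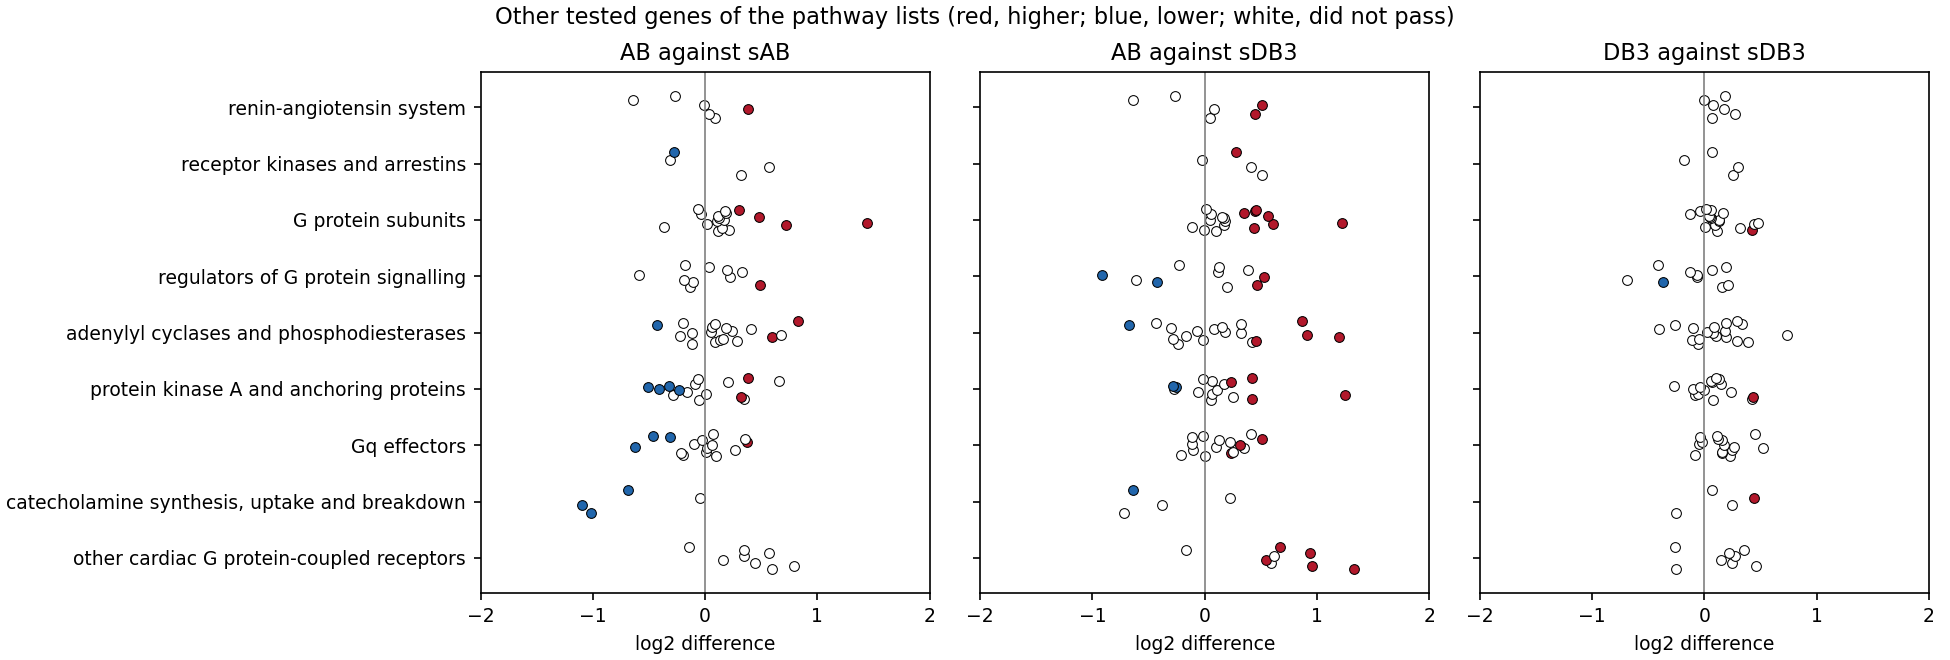
Log2 difference (x axis) of the other tested genes of 9 pathway lists (rows), 1 point per gene, red where higher and blue where lower at a limma adjusted p under 0.05 and white where not passed. Gnao1 is the point at 1.45 for AB against sAB, and few points are coloured for DB3 against sDB3.

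Genes whose profile over the 12 arrays was most like that of each gene were listed by Pearson correlation, as a description with no test. The closest to Ace were Cygb at 0.98, Ltbp4 at 0.97 and Slc25a23 at 0.96, and Cygb averaged 10.46 in AB, 8.57 in sAB, 10.38 in DB3 and 9.94 in sDB3 hearts. The closest to Gpr22 were Kcnj5, a potassium channel gene of heart muscle, at 0.96, As3mt at 0.94 and Tcaim at 0.94. For Grk5 they were Cnot11 at 0.97, Ccdc107 at 0.96 and Me2 at 0.96. Fhod3, a formin of heart muscle, was closest to Agtr1a at 0.93, followed by Lclat1 and Spata33 at 0.92 each. For Adra1b they were Grcc10 at 0.89, Ctsb at 0.88 and Hhatl at 0.88. Among the 5 genes the strongest correlation was that of Ace with Gpr22, at -0.82. The 12 arrays share 4 groups, and group differences enter each of these values.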

How the data were processed

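Left ventricular RNA from 12 mice in 4 groups of 3 was measured on Affymetrix mouse arrays. The authors deposited a table of log2 signals of 45101 probe sets, made with GCRMA per the submitters' processing notes. GCRMA subtracts background and summarises probes, and 33.5% to 36.8% of values per array lay within 0.01 of the lowest, 2.23, so low values have no order. Scanner intensities and the genome build were not given in the sources used here, and the number of arrays, not read depth, limits the precision.

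The platform annotation gave 1 symbol for 34945 probe sets, and these were named. A probe set was kept with a log2 value above 4 on at least 3 arrays, and each gene took the one with the highest mean. One model of 4 group means was fitted with limma 3.58.1 in R 4.3.3 (lmFit, eBayes), and p-values were adjusted by Benjamini-Hochberg over 10435 genes. Two-sided exact permutation of 3 against 3 arrays cannot go below p = 0.1, so limma's test is given. The labels do not say whether mice were operated in separate batches, so p-values measure the spread between these arrays. No arrays held identical values.

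Members and gene lists were chosen with earlier results of these data known. Named from each list were up to 4 called genes with the largest absolute difference in AB against sAB and in DB3 against sDB3. Enpep, Atp6ap2, Arrb1, Arrb2, Plcb4, Prkcd, Dgkz and the called fibroblast markers were added after their values were seen. Likeness took 3 genes for each of the 5. The model was tested on simulated data. Alternatives changed the filter, the choice of probe set, the normalisation, the samples in the fit and the moderation, and left out each array in turn. Promoters came from RefSeq, GRCm38.p6, which listed Gpr22, Ace and Grk5.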

Additional observations from a re-analysis of the deposited data

Results flagged for a closer look

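Ace had an effect of DB3 against sDB3 that was smaller than its effect of AB against sAB by 1.32 on the log2 scale (-1.32 ± 0.22, limma adjusted p = 0.0124), which was picked out as a difference between 2 effects under the same kind of contrast. The interaction stayed below 0.05 in each of the 12 fits that left out 1 array, with adjusted p from 0.00735 to 0.0342. With the other Ace probe set it was -0.56 and did not pass (adjusted p = 0.101). The sAB arrays, which enter this value, also differed from all others in the BioC control, and the part of that in the value was not tested.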

How the results depend on the processing

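The calls of Ace, Grk5 and Gpr22 for AB against sAB held in all 12 fits that left out 1 array and in all 8 other alternatives. Leaving out 1 array, genes called ranged from 1139 to 2119 for AB against sAB, 170 to 535 for DB3 against sDB3, 152 to 567 for the difference between these effects, 365 to 1031 for DB3 against AB, 967 to 1945 for sDB3 against sAB, 1124 to 2354 for AB against sDB3 and 1490 to 2340 for DB3 against sAB, beside 2058, 664, 630, 956, 1861, 2298 and 2282 with all arrays. The lowest counts came without AB replicate 3 for AB against sAB, AB against sDB3, DB3 against AB and the difference between effects, without sDB3 replicate 2 for DB3 against sDB3 and sDB3 against sAB, and without sAB replicate 2 for DB3 against sAB. Of the 5 genes, 0 to 1 were then called for DB3 against sDB3, 1 to 2 for the difference between effects, 0 to 1 for DB3 against AB, 1 to 2 for sDB3 against sAB and 1 to 4 for AB against sDB3. The other pathway genes called ranged from 9 to 28 for AB against sAB, 0 to 4 for DB3 against sDB3 and 15 to 34 for AB against sDB3. With only the compared groups in the fit, limma called 0 genes for DB3 against sDB3 (2137 at an unadjusted p under 0.05), none of the 5 genes (2 unadjusted) and 0 pathway genes, 629 genes for DB3 against AB, 571 for sDB3 against sAB and 1371 for DB3 against sAB. For DB3 against sDB3, no dim filter gave 323 genes and 1 pathway gene, quantile normalisation 199 and 1, no moderation 427 and 2, median centring 2 pathway genes, a trended robust prior 7, and the mean of probe sets 2 with none of the 5 genes (2 unadjusted). No dim filter gave 338 genes for the difference between effects and 21 pathway genes for AB against sDB3. For AB against sDB3, 1 of the 5 genes was called without a dim filter or without moderation, and 4 with the filter at 6, quantile normalisation, median centring or the trended robust prior. Signs turned with 1 array left out for Agtr1a in AB against sAB (-0.28 to 0.037), and in the difference between effects for Agtr1a (-0.21 to 0.10), Adra1b (-0.077 to 0.47) and Grk5 (-0.17 to 0.029). Grk5 turned to 0.10 for sDB3 against sAB with its second probe set, and with the mean of probe sets Grk6 turned to 0.018 and Prkce to 0.34 (adjusted p = 0.0143) for AB against sAB. The causes of these shifts were not tested. No paired analysis was possible because the labels give no replicate numbers that pair mice across groups. Signal close to the filter of 4 limits Rgs14, Maoa and Dbh.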
